A study of Homo sapiens with 3 samples.

Results

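The 10 genes HK2, GPI, PFKP, ALDOA, TPI1, GAPDH, PGK1, ENO1, PKM and LDHA encode enzymes of glycolysis from hexokinase to lactate dehydrogenase. They were listed by symbol, 1 gene for each enzyme, as the main expressed gene of each step, out of 59719 gene names in the expression table. The differences between libraries were no part of the rule, but earlier results of these data were known when the genes were listed. All 10 averaged 1 TPM or more over the 3 libraries and so belong to the 13637 genes compared here. TPM is a level corrected for transcript length and scaled to the same total in every library. The phosphoglycerate mutase step is not represented among them.

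RNA-seq was carried out on PC3 cells, a cell line from a bone metastasis of human prostate cancer that grows without androgen. There were 3 groups of 1 library each. The control group, shCON, is labelled as the control, its description reads RFP, and the study calls shCON cells a vector control. The other groups, shUSP16#1 and shUSP16#2, each carried a different short hairpin RNA against USP16, an enzyme that removes ubiquitin from proteins. The hairpins were cloned into the pLKO.1 vector and stable cells were selected with puromycin. With single libraries no p-value, SD or interval can be given for any difference. The number of reads behind each level is unknown, because TPM keeps no depth. A gene was called lower or higher where its log2(TPM + 1) under a hairpin differed from that in shCON by at least 1, which is 2-fold on that scale. Each value below is a level (TPM) or a difference of log2(TPM + 1), hairpin minus control, and both differences use the same shCON library.

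The target gene was low under both hairpins. USP16 was at 19.9 TPM in shCON, 3.50 TPM in shUSP16#1 and 1.08 TPM in shUSP16#2, which is 17.6% and 5.42% of the control. The epithelial genes KRT8, KRT18 and EPCAM lay between 136 and 947 TPM in the 3 libraries, whereas KLK3, typical of androgen-dependent prostate cells, was listed at 0 in each. The leukocyte gene PTPRC stayed at or below 0.14 TPM, and the endothelial gene PECAM1 was at 0.14, 0.72 and 1.28 TPM. Over all genes compared, the median difference was -0.17 under shUSP16#1 and -0.37 under shUSP16#2, so most genes were lower in relative level.

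Glycolysis splits 1 glucose molecule into pyruvate in the cytosol. Hexokinase and phosphofructokinase spend ATP in the upper part, phosphoglycerate kinase and pyruvate kinase return it in the lower part, and lactate dehydrogenase regenerates NAD+ by reducing pyruvate to lactate. Many tumour cells take up much glucose and release lactate even when oxygen is present. Several of these genes are textbook targets of the hypoxia factor HIF-1, which binds the core ACGTG or GCGTG, and of MYC with its partner MAX, which binds the E-box CACGTG. The study behind the data asked whether USP16 acts on the stability of the c-Myc protein, which mRNA levels do not measure.

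Promoter windows are shown to place these cores. They are those of HK2 and PGK1, the members with the most negative and the most positive mean difference, and of GAPDH and LDHA, which carry an E-box like HK2. Each is the 250 bases before an annotated transcription start (RefSeq, GRCh38.p14, plus strand of each chromosome and of each gene), with every copy of these cores on either strand in capitals. HK2 is shown at chr2:74834920-74835169, GAPDH at chr12:6535014-6535263, PGK1 at chrX:78103998-78104247 and LDHA at chr11:18394313-18394562.
HK2: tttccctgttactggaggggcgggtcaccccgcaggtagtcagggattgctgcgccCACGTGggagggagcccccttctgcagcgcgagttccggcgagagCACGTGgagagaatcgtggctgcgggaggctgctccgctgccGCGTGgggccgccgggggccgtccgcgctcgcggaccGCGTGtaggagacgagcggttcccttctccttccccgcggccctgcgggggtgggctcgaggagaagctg
GAPDH: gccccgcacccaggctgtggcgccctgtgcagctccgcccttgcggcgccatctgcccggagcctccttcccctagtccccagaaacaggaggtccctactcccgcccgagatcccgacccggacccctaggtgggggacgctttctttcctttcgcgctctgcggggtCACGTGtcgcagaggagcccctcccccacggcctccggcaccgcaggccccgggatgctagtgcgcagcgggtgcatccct
PGK1: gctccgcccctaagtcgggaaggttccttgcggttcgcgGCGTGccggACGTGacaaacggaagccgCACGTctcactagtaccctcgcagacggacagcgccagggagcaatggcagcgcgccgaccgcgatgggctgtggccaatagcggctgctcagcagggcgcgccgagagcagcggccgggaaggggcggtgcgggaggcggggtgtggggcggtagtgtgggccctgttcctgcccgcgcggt
LDHA: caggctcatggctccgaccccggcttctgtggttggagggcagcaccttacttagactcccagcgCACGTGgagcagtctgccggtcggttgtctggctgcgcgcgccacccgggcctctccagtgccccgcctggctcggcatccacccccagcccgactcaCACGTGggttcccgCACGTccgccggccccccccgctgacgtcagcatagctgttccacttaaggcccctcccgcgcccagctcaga

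In the HK2 window shown, an E-box began 194 bases before the start and another 149 bases before it. The LDHA window shown held E-boxes at 185 and 87 bases, and the GAPDH window 1 at 81 bases. HK2 and LDHA each have another annotated start, and neither of those windows holds an E-box. That of HK2 (chr2:74833877-74834126) had ACGTG at 229 and 48 bases and GCGTG at 55 bases. That of LDHA (chr11:18396101-18396350) had only GCGTG, at 123 bases. The PGK1 window had no E-box, but ACGTG at 202 and 183 bases and GCGTG at 211 bases. An E-box contains ACGTG on both strands, so each E-box also counts as ACGTG. RefSeq lists 18 starts for the 10 genes. ACGTG was found before 11 of the 18, in 8 of the 10 genes, against 18.5% of all 35116 promoter windows and 21.7% of 27305 genes with any window. GCGTG was found before 7 of the 18 starts, against 32.2% of windows, and in 6 of the 10 genes, against 36.2% of genes. CACGTG was found before 4 of the 18 starts, against 6.34% of windows. By gene it was found in 4 of the 10, namely HK2, ALDOA, GAPDH and LDHA, against 7.73% of genes. Counts by gene also depend on how many windows a gene has. The PKM window held none of the cores. These matches are letters in a window and say nothing on binding.

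The members were among the most abundant mRNAs of the cells, apart from HK2, PFKP and GPI. Their summed level was 11521 TPM in shCON, 12710 TPM in shUSP16#1 and 12211 TPM in shUSP16#2, or 1.15%, 1.27% and 1.22% of all TPM. The sum was therefore slightly higher under both hairpins than in the control. Coding genes outside the mitochondrial genome held 87.7%, 89.3% and 84.0% of all TPM in shCON, shUSP16#1 and shUSP16#2. Of that coding TPM the members made up 1.31%, 1.42% and 1.45%, so the order of the hairpin libraries depends on the total used. GAPDH was the most abundant member in every library and HK2 the least abundant, with GAPDH at 128 times the level of HK2 in shCON, 312 times in shUSP16#1 and 206 times in shUSP16#2. In bulk RNA, fewer cells with a transcript and less of it per cell cannot be told apart. In the plot of levels by library, HK2, PFKP and GPI lay below the other enzymes in every library.

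**Figure D1:**
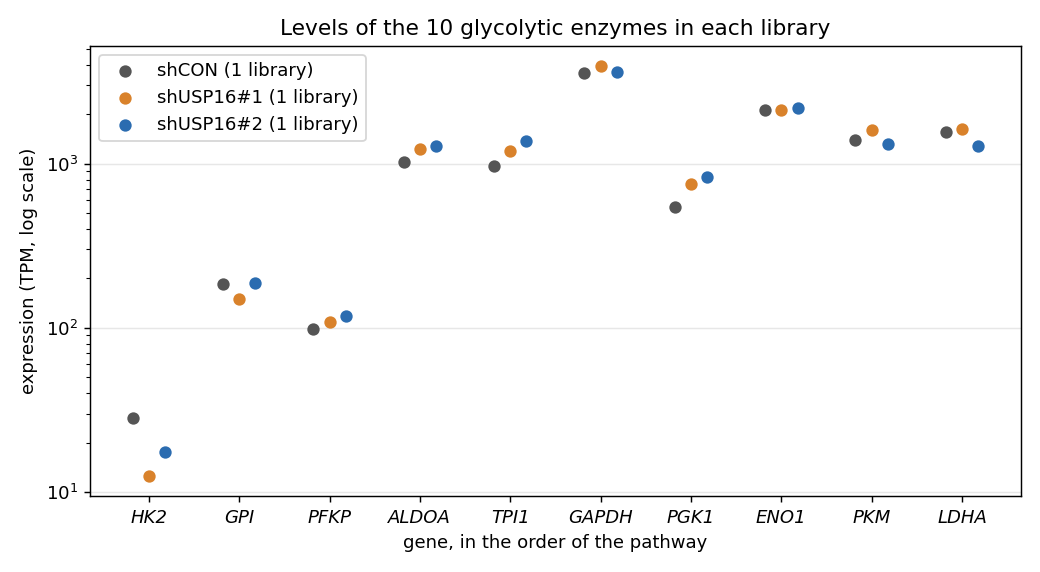
Level of each of the 10 glycolytic enzymes (TPM, log scale) in pathway order, 1 point per library for shCON, shUSP16#1 and shUSP16#2. HK2 lies lowest, at 12.6 to 28.0 TPM, and GAPDH highest, at 3582 to 3912 TPM, and only HK2 has its control point well above both hairpin points.

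HK2 was the member that was lowest relative to control. It encodes hexokinase 2, which phosphorylates glucose and can sit on the outer mitochondrial membrane (ENSG00000159399, chr2:74833981-74893359, plus strand, GRCh38). HK2 was at 28.0 TPM in shCON, 12.6 TPM in shUSP16#1 and 17.6 TPM in shUSP16#2, which is 44.8% and 62.6% of the control. Its differences were -1.10 and -0.65. HK2 thus fell by more than 2-fold under shUSP16#1 only. Centred on the all-gene median that difference was -0.93, no longer past 2-fold, and with the GC trend removed it was -1.08. The HK2 level was 0.45 higher on the log2 scale under shUSP16#2 than under shUSP16#1. USP16 itself had the lower level under shUSP16#2, so the order of HK2 across the hairpin libraries is not the order of USP16.

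The next enzymes of the upper part differed little. GPI, glucose-6-phosphate isomerase (ENSG00000105220, chr19:34359480-34402413, plus strand), was at 186 TPM in shCON, 149 TPM in shUSP16#1 and 188 TPM in shUSP16#2. It was lower in shUSP16#1 (-0.32) and at the control level in shUSP16#2 (0.02). PFKP, the platelet-type phosphofructokinase (ENSG00000067057, chr10:3066333-3137712, plus strand), was at 99.0, 109 and 118 TPM in the same order, with differences of 0.14 and 0.26. Both hairpin libraries lay above the control for PFKP, by less than 1.5-fold.

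Aldolase and triosephosphate isomerase were higher under both hairpins, but by little once the GC trend was removed. ALDOA, aldolase A, which cleaves fructose 1,6-bisphosphate (ENSG00000149925, chr16:30064164-30070457, plus strand), was at 1019 TPM in shCON, 1226 TPM in shUSP16#1 and 1289 TPM in shUSP16#2, with differences of 0.27 and 0.34. Reads of ALDOA may have been divided with AC093512.2, an overlapping coding gene model on the same strand that was at 139, 206 and 190 TPM, also higher under both hairpins. TPI1, which interconverts the triose phosphates (ENSG00000111669, chr12:6867119-6870948, plus strand), was at 973, 1199 and 1365 TPM. Its differences were 0.30 and 0.49, and neither reached 2-fold.

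GAPDH and PGK1 catalyse neighbouring steps but behaved differently. GAPDH, which oxidises glyceraldehyde 3-phosphate (ENSG00000111640, chr12:6533927-6538374, plus strand), was at 3582 TPM in shCON, 3912 TPM in shUSP16#1 and 3620 TPM in shUSP16#2, with differences of 0.13 and 0.02. Its highest level was 1.09 times its lowest, a ratio that 3.64% of the compared genes equalled or stayed below. That share was not matched for abundance. PGK1, which makes the first ATP of the lower part (ENSG00000102144, chrX:77910739-78129296, plus strand), was at 546 TPM in shCON, 756 TPM in shUSP16#1 and 827 TPM in shUSP16#2, or 139% and 151% of the control. Its differences of 0.47 and 0.60 were the most positive of the 10 under each hairpin.

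The last part of the pathway had no common direction. ENO1, enolase 1 (ENSG00000074800, chr1:8861000-8879250, minus strand), was at 2133, 2130 and 2188 TPM in shCON, shUSP16#1 and shUSP16#2. Its highest level was 1.03 times its lowest, and 0.418% of compared genes had as small a ratio, a share likewise not matched for abundance. PKM, pyruvate kinase M (ENSG00000067225, chr15:72199029-72231822, minus strand), was at 1388, 1593 and 1318 TPM, with differences of 0.20 and -0.08. The table is per gene, so the PKM1 and PKM2 splice forms cannot be told apart. LDHA, the lactate dehydrogenase subunit that favours lactate formation (ENSG00000134333, chr11:18394388-18408425, plus strand), was at 1568, 1623 and 1279 TPM, with differences of 0.05 and -0.29. PKM and LDHA were above control in shUSP16#1 and below it in shUSP16#2, whereas GPI and ENO1 were below control in shUSP16#1 and above it in shUSP16#2.

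Read as a group, the 10 enzymes were not lower after USP16 knockdown. The median difference was 0.13 under shUSP16#1 and 0.03 under shUSP16#2, and its mean over the hairpins was below 0 only after removal of the GC trend (-0.08). Before removal of the GC trend, PFKP, ALDOA, TPI1, GAPDH and PGK1 (5 of 10) were higher under both hairpins and HK2 (1 of 10) was lower under both. Over all compared genes 24.5% were higher and 57.2% lower under both. In 8 of 10 members, all but HK2 and GPI, both differences lay above the all-gene medians, a position that 41.7% of all compared genes share. Among the 294 genes that averaged 500 TPM or more that share was 71.8% and the medians were 0.05 and 0.07. These 294 include the members themselves, except HK2, PFKP and GPI, which averaged less. The 10 members thus stood close to the abundant genes as a whole, a set that is not independent of them.

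No member passed 2-fold under both hairpins in either direction, where 4.60% of compared genes were lower (627) and 1.14% higher (155). Of the 294 genes that averaged 500 TPM or more, 3 were lower and 3 higher under both. Centred on the all-gene median, the counts over all compared genes were 273 lower and 341 higher. Under shUSP16#1 HK2 was the 1 member called lower, against 5.79% of genes, and no member was called higher, against 2.83%. Under shUSP16#2 no member was called, while 19.5% of genes were lower and 2.80% higher. Between the hairpin libraries no member differed by 2-fold, where 3.58% of genes were lower and 1.61% higher in shUSP16#2 than in shUSP16#1. In 8 of the 10, all but HK2 and PGK1, the level stayed within 1.5-fold of control under both hairpins, as it did in 47.7% of compared genes. The shares of members called are small counts and lie near these backgrounds, except that 19.5% of genes were called lower under shUSP16#2. That 19.5% covers genes down to 1 TPM, and abundant genes were not counted apart under this hairpin alone. No departure of the members can be read from it.

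**Figure D2:**
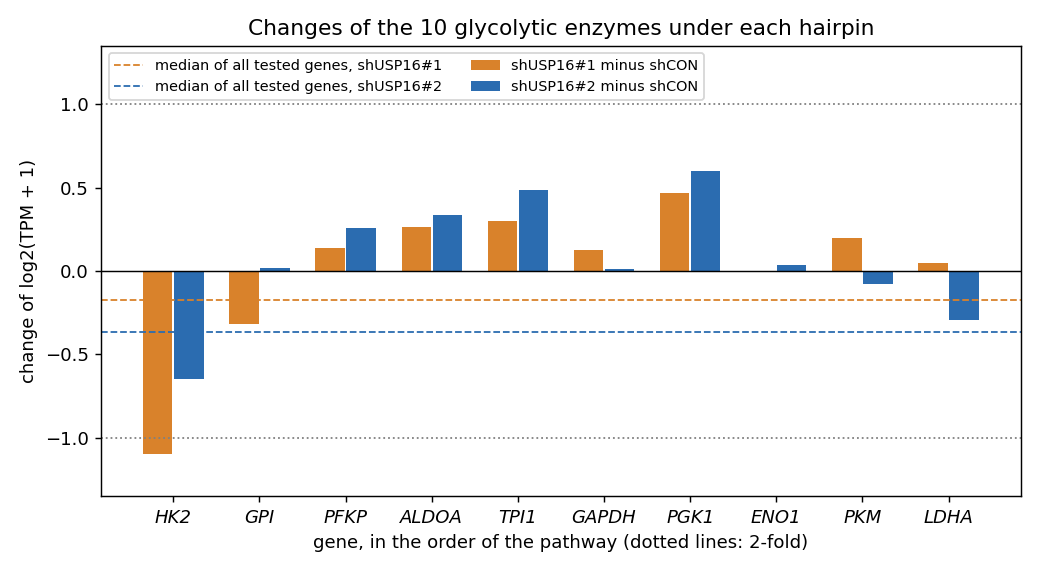
Difference of log2(TPM + 1) from shCON for the 10 enzymes in pathway order, 1 bar for each hairpin, with dashed lines at the median of all compared genes and dotted lines at 2-fold. HK2 reaches -1.10 and -0.65, PGK1 0.47 and 0.60, and the bars of GPI, ENO1, PKM and LDHA point in opposite directions under the hairpins.

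Base composition moved with the difference from control in these libraries. The decile of genes with the lowest GC content of the longest transcript had medians of -0.60 under shUSP16#1 and -1.05 under shUSP16#2, and the decile with the highest GC 0.24 and 0.22. The members had a median GC of 53.2%, against 49.1% over all compared genes. PGK1 and LDHA were the members poorest in GC, at 43.3% and 44.0%. PGK1 belonged to a decile with medians of -0.48 and -0.79, and its mean difference of 0.53 stood at percentile 97.4 within that decile. HK2, at 51.2% GC, belonged to a decile with medians of -0.16 and -0.34 and stood at percentile 8.42 within it. With the trend over GC removed, the differences were -1.08 and -0.70 for HK2 and 0.73 and 0.97 for PGK1, whereas those of GAPDH became -0.14 and -0.42. Those of ALDOA became 0.077 and 0.095, of TPI1 0.062 and 0.13 and of PFKP -0.10 and -0.10. GPI and ENO1 then also lay below 0 under both hairpins, and LDHA above 0. The median of the 10, averaged over the hairpins, moved from 0.07 to -0.08. The part of base composition in these differences was not tested.

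**Figure D3:**
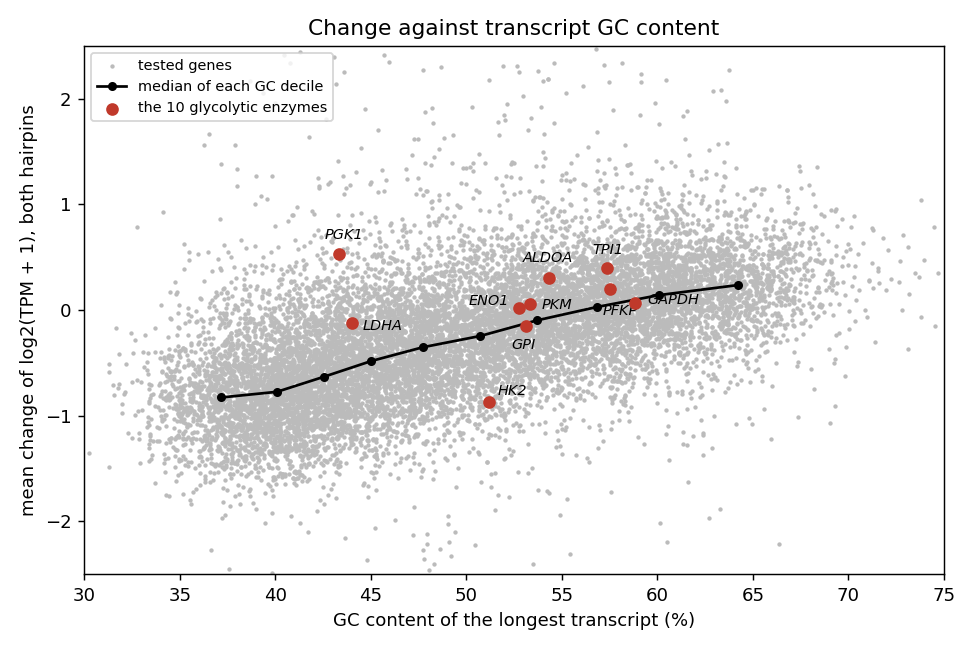
Mean difference of log2(TPM + 1) over the hairpins against transcript GC content (%), with compared genes in grey, the median of each GC decile in black and the 10 enzymes in red. PGK1 (43.3% GC, 0.53) lies above and HK2 (51.2% GC, -0.87) below the black line, and the other members lie closer to it (93 of 13296 genes with a GC value fall outside the axes).

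Several steps have more than 1 gene, and the listed member was not the main gene at each of them. At the hexokinase step HK1, the widely expressed hexokinase (ENSG00000156515), was at 71.0, 72.4 and 72.7 TPM in shCON, shUSP16#1 and shUSP16#2. HK2 made up 28.2% of the hexokinase TPM in shCON, 14.6% in shUSP16#1 and 19.3% in shUSP16#2, and HK1 71.3%, 84.2% and 80.0%. The HK1 level thus differed by 0.03 under each hairpin while HK2 was lower, and the sum of the hexokinase genes was 99.5, 85.9 and 90.9 TPM.

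At the phosphofructokinase step PFKL, the liver-type enzyme, exceeded PFKP in every library. PFKL was at 126 TPM in shCON, 177 TPM in shUSP16#1 and 205 TPM in shUSP16#2, with differences of 0.49 and 0.70. The ratio of PFKL to PFKP was 1.28, 1.63 and 1.73, and PFKP made up 34.6%, 31.1% and 31.1% of the step. The transcript GC was 64.1% for PFKL and 57.5% for PFKP, and the part of base composition in this ratio was not tested. PFKM, the muscle-type enzyme, was at 61.0, 63.7 and 57.1 TPM. The sum of the 3 genes was higher under both hairpins, at 122% and 133% of control.

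At the aldolase, enolase and lactate dehydrogenase steps the member was the main gene. ALDOA made up 98.1%, 98.2% and 97.5% of aldolase TPM in shCON, shUSP16#1 and shUSP16#2, and ENO1 99.1%, 98.7% and 98.5% of enolase TPM. ALDOC was at 19.6, 22.5 and 33.5 TPM and ENO2 at 16.1, 23.0 and 31.7 TPM, so both minor genes were higher under each hairpin, with ENO2 at 143% and 197% of control. LDHB, the subunit that favours lactate oxidation, was at 525 TPM in shCON, 331 TPM in shUSP16#1 and 266 TPM in shUSP16#2, with differences of -0.66 and -0.98. LDHA consequently made up 74.9%, 83.1% and 82.8% of the step, and the ratio of LDHA to LDHB was 2.99, 4.90 and 4.81. GAPDHS, PGK2 and PKLR, the other genes of their steps, were listed at 0 in each library.

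**Figure D4:**
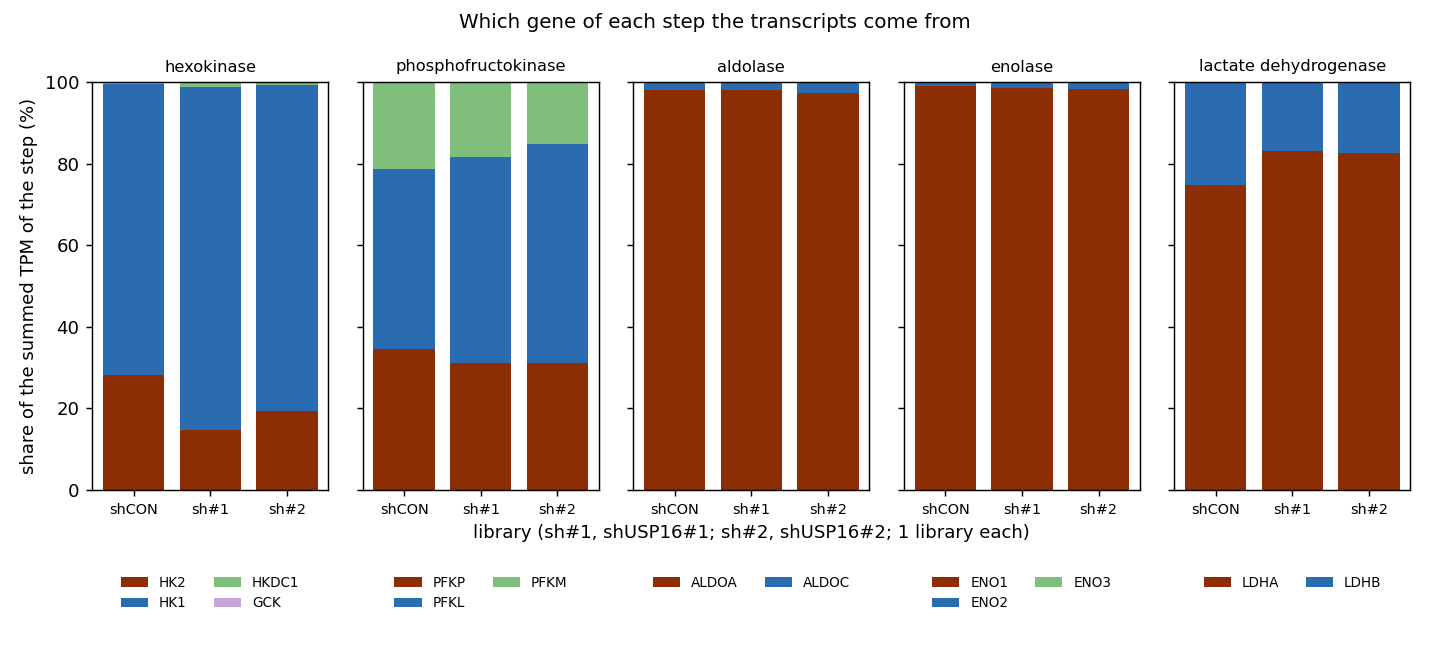
Share of the summed TPM of each step (%) that comes from each gene, for the steps with more than 1 gene at 0.05% or above, 1 bar for each of the 3 libraries. The HK2 share is 28.2% in shCON and 14.6% and 19.3% under the hairpins, PFKL is the largest of the phosphofructokinases, and the LDHA share is 74.9% in shCON and 83.1% and 82.8% under the hairpins.

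The mutase between PGK1 and ENO1 is PGAM1, which is no member. It was at 528 TPM in shCON, 592 TPM in shUSP16#1 and 362 TPM in shUSP16#2, with differences of 0.17 and -0.54. Of the 23 other genes listed for the glycolytic steps 10 were compared, and none passed 2-fold under both hairpins. Under both, 7 were higher and 1 (LDHB) lower, and the medians were 0.21 and 0.09. The 7 include LDHD, a lactate dehydrogenase for the D form, which was not counted in the shares of the lactate dehydrogenase step.

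Copies of the members in the genome were at low levels. The table holds 85 pseudogenes named after members, 62 of them after GAPDH. Their summed level was 3.91, 3.85 and 2.77 TPM in shCON, shUSP16#1 and shUSP16#2, and the highest share of a member that they reached was 0.195%, for TPI1.

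The sequence of the hairpins is shown because a hairpin can also act on other mRNAs through bases 2 to 8 of its antisense strand (the seed, in capitals). Both full sequences matched USP16 transcripts exactly in GENCODE release 29 and no other gene.
shUSP16#1 antisense: aTAAACATgatttcttctggc
shUSP16#2 antisense: aAATCTTGtggaatatcaccg
The site pairing with the shUSP16#1 seed, ATGTTTA, occurred once in the 3′ UTR of HK2 and once in that of LDHA, so in 2 of 10 members, against 18.3% of 18794 coding genes with a 3′ UTR. The site for the shUSP16#2 seed, CAAGATT, occurred at 2 places in the 3′ UTR of PGK1 and in no other member (1 of 10), against 9.56% of coding genes. HK2, with a site for shUSP16#1, was lower under shUSP16#1 than under shUSP16#2. LDHA, with a site for the same hairpin, was lower under shUSP16#2, and PGK1, with sites for shUSP16#2, was highest under that hairpin. Whether the hairpins act through these sites was not tested.

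The transport genes had no common direction. Of 9 compared genes for glucose and lactate transport, EMB, a partner protein of lactate carriers, fell under both hairpins, from 6.77 TPM in shCON to 2.01 and 2.16 TPM (differences of -1.37 and -1.30). This call did not hold after centring on the all-gene median, after GC removal or at a minimum of 5 TPM. SLC16A1, the lactate carrier MCT1, was at 43.0, 23.8 and 16.7 TPM, with differences of -0.83 and -1.31. SLC16A3, the lactate exporter MCT4, was at 223, 244 and 307 TPM, and its ratio to SLC16A1 was 5.17, 10.3 and 18.4. The transcript GC was 62.7% for SLC16A3 and 43.5% for SLC16A1. The GC decile of SLC16A3 had medians of 0.24 and 0.22, and that of SLC16A1 -0.48 and -0.79. The part of base composition in this ratio was not tested. The glucose carrier SLC2A6 was at 19.3, 16.7 and 15.9 TPM. The list had 4 genes lower (44.4%, against 57.2% of all compared genes) and 3 higher under both, and medians of -0.19 and 0.10.

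Regulators of flux through hexokinase and phosphofructokinase had no common direction. Of 6 compared genes none passed 2-fold under both hairpins, 3 were lower and 1 higher under both, and the medians were -0.44 and -0.13. PFKFB2, which makes the phosphofructokinase activator fructose 2,6-bisphosphate, was at 8.35, 4.62 and 3.30 TPM. PFKFB4, of the same family, was at 13.5, 17.1 and 22.6 TPM. VDAC2, a mitochondrial pore of the family to which hexokinase binds, was at 529, 415 and 381 TPM.

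The entry of pyruvate into mitochondria was lower in most of its genes. Of 13 compared genes 11 were lower (84.6%, against 57.2% of all compared genes) and 0 higher under both hairpins, with medians of -0.31 and -0.65 beside the all-gene medians of -0.17 and -0.37, and the list had a median GC of 43.5%. PDPR, a subunit of pyruvate dehydrogenase phosphatase, fell from 9.90 TPM in shCON to 4.25 and 4.06 TPM (differences of -1.05 and -1.11), and was the 1 gene of the list past 2-fold under both, though not after centring. DLAT, the acetyl-transferring subunit of pyruvate dehydrogenase, was at 40.8, 23.3 and 17.1 TPM, past 2-fold under shUSP16#2 alone. The shuttles that carry cytosolic NADH into mitochondria had 5 of 6 compared genes lower under both (83.3%, against the same 57.2%) and medians of -0.40 and -0.77. GPD2, the mitochondrial glycerol phosphate dehydrogenase, was at 17.3, 9.05 and 4.78 TPM and GPD1L at 10.4, 6.38 and 4.99 TPM, while MDH2, mitochondrial malate dehydrogenase, was at 176, 208 and 204 TPM. None of these passed 2-fold under both hairpins. With the GC trend removed, the median of the mean differences over the hairpins moved from -0.47 to -0.30 for pyruvate entry. For the shuttles it moved from -0.58 to -0.54. The part of base composition was not tested for these lists.

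Side branches lay closer to the members. Of 8 compared genes of the pentose phosphate pathway, which draws on glucose 6-phosphate, 4 were higher and 3 lower under both, none by 2-fold, with medians of -0.05 and 0.07. PGLS was at 122, 178 and 204 TPM, whereas RPE was at 36.5, 25.3 and 18.9 TPM and RPIA at 31.9, 26.1 and 25.7 TPM. Of 5 compared genes of gluconeogenesis, 3 were higher and 1 lower under both, with medians of 0.17 and 0.19. PCK2, the mitochondrial phosphoenolpyruvate carboxykinase, was at 8.43, 12.3 and 17.4 TPM, PC, pyruvate carboxylase, at 4.82, 6.86 and 6.05 TPM, and G6PC3 at 88.0, 86.8 and 87.7 TPM.

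Most regulators of glycolytic genes were lower in level. Of 14 compared genes 12 were lower (85.7%, against 57.2% of all compared genes) and 1 (EGLN2) higher under both hairpins, and the medians were -0.38 and -0.75. EGLN3, a prolyl hydroxylase of the hypoxia pathway that HIF-1 itself induces, fell from 15.7 TPM in shCON to 5.05 and 5.89 TPM (differences of -1.47 and -1.28), a call that was also lost on centring. EGLN1 was at 16.8, 8.63 and 8.04 TPM and EGLN2 at 32.9, 38.9 and 38.4 TPM. HIF1A, the oxygen-regulated subunit of HIF-1, was at 92.6 TPM in shCON, 53.9 TPM in shUSP16#1 and 26.1 TPM in shUSP16#2, with differences of -0.77 and -1.79 and a transcript GC of 36.4%. MYC was at 238, 209 and 173 TPM, with differences of -0.19 and -0.46, near the all-gene medians. Its transcript GC was 53.9%, and both differences were lower than the medians of that GC decile, -0.01 and -0.15. The regulators list had a median GC of 47.2%. With the GC trend removed, the median of its mean differences over the hairpins moved from -0.59 to -0.53. The part of base composition was not tested for it either.

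**Figure D5:**
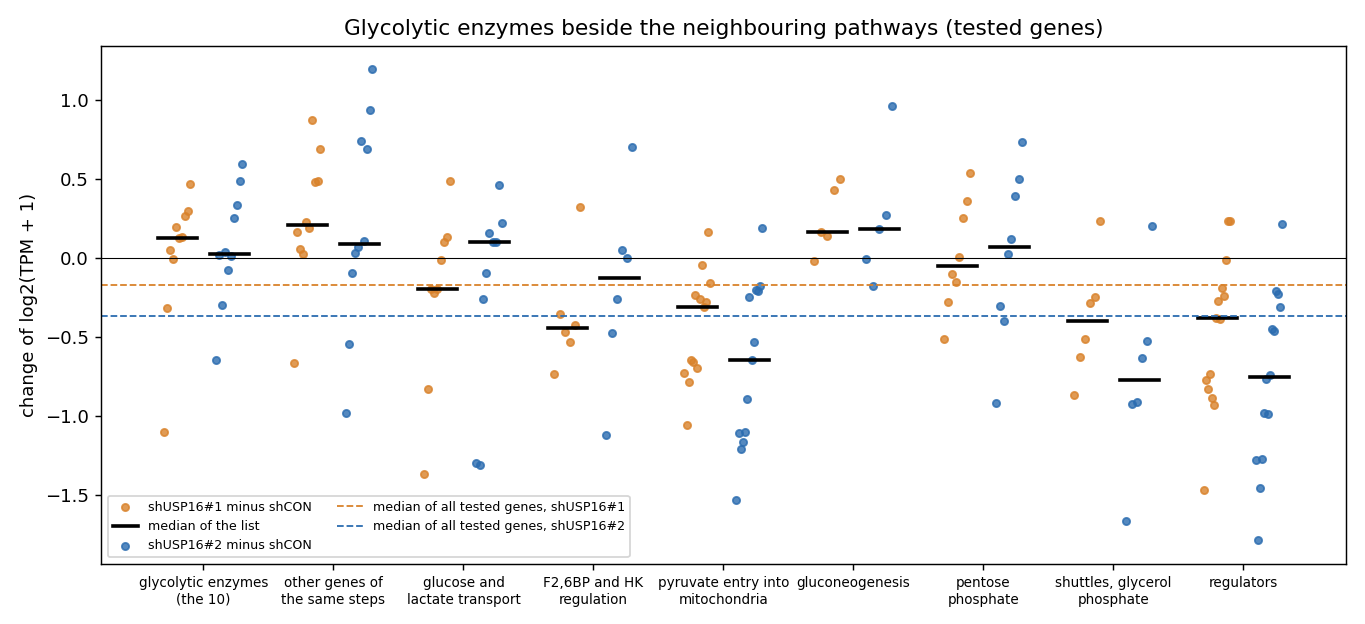
Difference of log2(TPM + 1) from shCON for every compared gene of the 10 enzymes and of 8 neighbouring lists, 1 point per gene and hairpin, with black bars at the list medians and dashed lines at the medians of all compared genes. The medians of the 10 enzymes are 0.13 and 0.03, those of pyruvate entry -0.31 and -0.65, and those of the regulators -0.38 and -0.75.

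The deposited annotation places 47 compared genes in the KEGG pathway of glycolysis and gluconeogenesis. Under both hairpins 18 were lower and 19 higher, with medians of 0.05 and -0.08. Without the members, 17 of 37 were lower and 14 higher, with medians of 0.03 and -0.14. The genes with the pair of differences nearest to the median pair of the members, of 1337 other genes averaging 100 TPM or more, were MTX1, RFXANK and RPL38, at Euclidean distances of 0.0083, 0.0099 and 0.018 on the log2 scale. RPL38, a protein of the large ribosomal subunit, was at 2407, 2624 and 2427 TPM in shCON, shUSP16#1 and shUSP16#2.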

How the data were processed

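Total RNA of PC3 cells was sequenced from 3 groups of 1 library each (shCON, shUSP16#1, shUSP16#2), grouped by their labels. The deposited table holds TPM values per gene with 2 decimals, computed by the authors, and repeats its 3 value columns once. The repeated columns were not used. The submitters' processing notes name CASAVA, HISAT2 and the build hg19. The quantification tool and annotation are not given in the sources used here, and 57308 of 59719 gene identifiers were found in GENCODE release 29 (GRCh38), from which gene coordinates and transcripts were taken by identifier. Promoters came from RefSeq (GRCh38.p14) and the hairpins from the study's oligonucleotide list.

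Of 60930 entries, 1211 repeats of a name were left out, keeping the entry with the highest mean. Differences of log2(TPM + 1) were taken for the 13637 genes averaging 1 TPM or more, called at 1 or more in size, and described without a test because groups hold 1 library. Depth is unknown, so no counting interval was given. GC content used the longest GENCODE transcript, which 341 compared genes lacked, and its trend was removed by subtracting the median of each of 50 GC bins and adding back that of all genes. The scripts (Python 3.11.15, pandas 2.3.3, numpy 2.4.6) were tested on simulated data. Alternatives were a pseudocount of 0.1, no minimum or a minimum of 5 TPM, centring on the all-gene median, rescaling to coding genes, GC removal, a 1.5-fold call, pseudogenes added and each hairpin alone.

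Named genes were the 10 members, USP16, for each step the listed gene with the highest mean TPM, in each other list the called genes and, averaging 5 TPM or more, the 2 that were lowest and the 2 highest under both hairpins, and the 3 genes nearest to the median pair of the members. HIF1A, MYC, PFKM, AC093512.2 and the genes listed at 0 were named after their values were seen. Some genes that the rule names are not reported here. The members and lists were chosen with earlier results of these data known.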

Additional observations from a re-analysis of the deposited data

Results flagged for a closer look

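A few enzymes lay above the control in one hairpin library and below it in the other; with 1 library in each group this difference between the hairpins was not tested. GPI differed from shCON by -0.32 under shUSP16#1 and 0.019 under shUSP16#2, on the log2(TPM + 1) scale. For ENO1 the differences were -0.0018 and 0.037, for PKM 0.20 and -0.075, and for LDHA 0.050 and -0.29. PGAM1, the mutase, stood at 0.17 under shUSP16#1 and -0.54 under shUSP16#2. All of these are below 2-fold, and the highest ENO1 level was 1.03 times its lowest.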

How the results depend on the processing

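No paired analysis was possible because every group holds a single library. For the differences and counts, 240 of 273 alternative values kept their sign and call or, for counts, stayed within 1.5 times, and all 30 step shares moved by at most 0.0068 percentage points with pseudogenes added. Many of these could hardly move. All members averaged above 5 TPM, so the minimum could not alter their values. Pseudogenes reached at most 0.195% of a member, and many counts were 0 under every setting. The share kept is therefore no measure of robustness. Some medians moved without a change of sign: on centring, the member median from 0.067 to 0.34 and that of fructose 2,6-bisphosphate and hexokinase regulation from -0.30 to -0.033, and without a minimum that of other step genes from 0.31 to 0.013. Signs turned where values lay near 0. Centring on the all-gene median gave GPI 0.12, LDHA 0.15 and the transport median 0.25. Removing the GC trend gave PFKP -0.10, GAPDH -0.28, ENO1 -0.15, PKM -0.064, LDHA 0.14, the member median -0.084, the median difference between hairpins -0.0023, and the medians of gluconeogenesis -0.053 and the pentose phosphate pathway -0.19. The transport median became 0.0030 after rescaling, 0 without a minimum and 0.10 with shUSP16#2 alone. Without a minimum, the gluconeogenesis median was -0.0017 and the pentose phosphate median -0.014, and the latter was -0.063 at a minimum of 5 TPM and -0.046 with shUSP16#1 alone. Members called lower went from 0 to 1 (HK2) with shUSP16#1 alone and at 1.5-fold. With shUSP16#2 alone, which called more genes lower, the counts were 1 higher among other step genes and, lower, 2 for transport, 1 for fructose 2,6-bisphosphate and hexokinase regulation, 5 for pyruvate entry, 1 for shuttles and 4 for regulators. Centring left 0 lower for transport, pyruvate entry and regulators, GC removal 0 and a minimum of 5 TPM 0 for transport, and a pseudocount of 0.1 gave 2 regulators. The cause of these shifts was not tested. Over all genes, lower and higher calls were 627 and 155 as reported, 273 and 341 after centring, 265 and 102 after GC removal, and 1095 and 287 at a pseudocount of 0.1.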

Other observations

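GAPDH also served as the internal control of the quantitative PCR of the study. The listed forward primer, AGCCACATCGCTCAGACAC, matched 9 GAPDH transcripts of GENCODE release 29. The sequence listed as the GAPDH reverse primer, CCCTGTCTGTCCTCTGTAGC, matched no GAPDH transcript on either strand and matched 4 transcripts of DRAM1, an autophagy gene. Whether the listing or the primer differs was not tested, and the RNA-seq levels of GAPDH do not depend on it.

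LDHD, a mitochondrial lactate dehydrogenase for the D form, was at 1.40 TPM in shCON, 2.88 TPM in shUSP16#1 and 4.50 TPM in shUSP16#2. Among the listed other step genes it was the 1 past 2-fold under shUSP16#2, and it was chosen here after its values were seen. It was not counted in the shares of the lactate dehydrogenase step. TXNIP, an inhibitor of glucose uptake, was at 51.8, 30.8 and 20.9 TPM, and its relative ARRDC4 at 2.62, 0.90 and 1.13 TPM. The carrier SLC2A1 was at 132, 115 and 147 TPM and BSG, a partner protein of MCT1 and MCT4, at 447, 444 and 480 TPM. These 4 genes were also chosen after their values were seen.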
